A study of Mus musculus with 12 samples.

Results

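The genes described here are 40 genes of the cell division cycle, taken from a named list of replication and mitosis genes, out of 47643 gene IDs in the deposited tables. All 40 were found in the files and all 40 passed the filter on low counts. The libraries hold poly(A) RNA of monocytes from the bone marrow of Nr4a3 knockout (KO) and wild-type (WT) mice, both on a C57BL/6 background. Cells of each genotype were taken as sorted monocytes, or after culture for 1 day or 2 days in the presence of IL-4 and GM-CSF, a cytokine pair in which monocytes become dendritic cells. This gave 6 groups (KO and WT monocytes, KO and WT day 1, KO and WT day 2) of 2 libraries each, which per the labels came from independent experiments. The labels state neither the number of mice behind a library nor which part of Nr4a3 was deleted, and no sort gate is stated in them. By the dates in the deposited file names, sorted monocytes and day 1 cells of a given replicate number came from 1 experiment, and day 2 cells came from other experiments, so that day 2 and experiment cannot be told apart. Those names also give 16 hours for day 1 replicate 2, where the labels say 1 day.

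Dividing cells copy their DNA in S phase and separate the copies in M phase. The MCM helicase is loaded on replication origins before S phase, E2F transcription factors and cyclin E drive entry into it, and cyclins A and B with CDK1 drive mitosis. Most genes of both phases are held down in resting cells by the Rb and DREAM repressor complexes, and bone-marrow monocytes arise from precursors that divide rapidly. The members were grouped by role as 8 origin licensing genes, 5 genes of DNA synthesis, 3 G1/S drivers, 9 mitotic cyclins, kinases and their regulators, 4 genes of the spindle checkpoint and the anaphase-promoting complex (APC/C), 9 genes of the spindle and cytokinesis, and 2 chromosome proteins. In bulk RNA a lower level can come from fewer dividing cells or from less RNA in each cell, and these cannot be told apart.

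Promoter sequences show what members of the same role share in their letters, and they were not used to choose the members. In the RefSeq table for GRCm38.p6, 33 of the 40 members had an entry, from 250 bases before to 50 after the gene's start. Each promoter was searched on both strands for the cell cycle homology region (CHR, TTTGAA or TTCGAA), for the CCAAT box and for an E2F motif (TTTCCCGC, TTTCGCGC, TTTGCCGC or TTTGGCGC). A CHR together with a CCAAT box was present in 15 of 19 promoters of the mitotic, checkpoint, spindle and chromosome groups (78.9%). It was present in 2 of 14 promoters of the licensing, DNA synthesis and G1/S groups (14.3%), and in 7.7% of all 27025 promoters of the table. An E2F motif was present in 6 of the 7 licensing promoters (85.7%), in 1 of the 19 promoters of the later groups (5.26%), and in 2.32% of all promoters. None of the 5 DNA synthesis promoters and neither of the 2 G1/S promoters held those E2F letters in this window. In the 150 bases before the start alone, a CHR together with a CCAAT box was present in 6 of the 19 (31.6%), in 0 of the 14 and in 2.52% of all promoters, and an E2F motif in 3 of the 7 licensing promoters (42.9%), 1 of the 19 (5.26%) and 1.26% of all. Such matches describe letters and do not show binding.

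The 250 bases before the start are shown for 6 members, as examples of promoters that hold an E2F motif or a CHR with a CCAAT box. Capitals mark every match of the 3 motifs as read on the printed strand, so that ATTGG is a CCAAT box and GCGGGAAA an E2F motif on the opposite strand. The first pair are the licensing genes Cdc6, at chr11:98907901-98908150 (plus strand), and Mcm5, at chr8:75109259-75109508 (plus strand), in which 2 overlapping E2F motifs on opposite strands are marked as 1 run and CCAAT boxes are held too. The next pair are the mitotic genes Ccnb2, at chr9:70421555-70421804 (minus strand), and Cdk1, at chr10:69352913-69353162 (minus strand), which also holds an E2F motif. The last pair are the checkpoint genes Bub1b, at chr2:118597961-118598210 (plus strand), and Cdc20, at chr4:118437344-118437593 (minus strand).
Cdc6: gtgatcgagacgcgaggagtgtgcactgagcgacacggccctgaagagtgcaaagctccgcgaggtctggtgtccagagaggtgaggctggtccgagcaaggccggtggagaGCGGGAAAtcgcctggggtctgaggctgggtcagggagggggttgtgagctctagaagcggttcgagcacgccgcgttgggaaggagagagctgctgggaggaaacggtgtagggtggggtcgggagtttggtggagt
Mcm5: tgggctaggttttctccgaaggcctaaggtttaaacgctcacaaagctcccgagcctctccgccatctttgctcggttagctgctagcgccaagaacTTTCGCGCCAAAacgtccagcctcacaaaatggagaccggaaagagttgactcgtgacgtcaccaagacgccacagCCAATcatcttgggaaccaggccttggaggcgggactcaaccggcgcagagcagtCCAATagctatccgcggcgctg
Ccnb2: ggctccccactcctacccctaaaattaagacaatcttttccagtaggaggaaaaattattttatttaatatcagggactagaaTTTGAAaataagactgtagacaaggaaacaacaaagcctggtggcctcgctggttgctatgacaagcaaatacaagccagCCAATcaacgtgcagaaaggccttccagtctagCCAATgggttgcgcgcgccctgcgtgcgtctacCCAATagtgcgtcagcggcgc
Cdk1: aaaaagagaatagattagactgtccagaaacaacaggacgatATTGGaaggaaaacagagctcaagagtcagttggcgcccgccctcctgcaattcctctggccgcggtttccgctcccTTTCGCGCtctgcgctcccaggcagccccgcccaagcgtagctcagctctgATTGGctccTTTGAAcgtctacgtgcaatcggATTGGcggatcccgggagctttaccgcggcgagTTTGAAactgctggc
Bub1b: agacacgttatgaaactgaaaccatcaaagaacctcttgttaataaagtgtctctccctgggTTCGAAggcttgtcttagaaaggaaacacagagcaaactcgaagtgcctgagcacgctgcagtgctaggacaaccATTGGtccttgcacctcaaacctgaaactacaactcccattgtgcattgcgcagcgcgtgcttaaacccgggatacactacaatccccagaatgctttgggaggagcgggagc
Cdc20: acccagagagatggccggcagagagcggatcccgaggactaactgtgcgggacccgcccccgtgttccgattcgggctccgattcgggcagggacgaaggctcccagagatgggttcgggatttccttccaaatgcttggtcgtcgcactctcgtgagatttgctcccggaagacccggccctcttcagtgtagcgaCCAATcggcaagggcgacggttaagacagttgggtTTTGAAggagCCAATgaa

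Reads counted in genes ran between 5905266 and 18447405 a library. Nr4a3 itself was at 39 and 19.3 CPM (counts scaled to the library size, as adjusted by the TMM method) in the KO day 2 libraries, against 1290 and 1360 CPM in the WT day 2 libraries. At day 1 it had 76 and 0 reads in the libraries labelled KO, against 200 and 128 reads in WT. The library labelled KO day 1 replicate 1 stood apart on the first principal component of all genes, at 1.59 where the other day 1 libraries were between 38.4 and 46.7. WT monocytes replicate 2 stood apart too, at -140 where the other monocyte libraries were at -116, and ribosomal protein genes took 8.41% of its reads against 3.82% to 4.72% in those 3. Xist, a non-coding RNA of female cells that silences an X chromosome, was at 794 CPM in KO and 885 CPM in WT day 2 replicate 1 and at most 1.01 CPM in the other 10 libraries, and its part in the day 2 results was not tested. The summed markers moved as the labels of the cell types say. The 10 monocyte markers summed to 8630 to 10700 CPM in sorted monocytes, 4200 to 4360 CPM at day 1 and 1040 to 2940 CPM at day 2. The 10 dendritic cell markers summed to 245 to 280 CPM, 8390 to 12300 CPM and 18100 to 29200 CPM. Single markers could move more: F13a1 was at 3340 to 3820 CPM in sorted monocytes and 36.4 to 87.9 CPM in culture. Cd74, the MHC class II invariant chain, was at 136 to 183 CPM in monocytes and 4090 to 16100 CPM in culture. The sorted monocytes also held neutrophil markers, with a sum of 1030 to 3580 CPM.

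Culture with GM-CSF and IL-4 was accompanied by a broad fall of the cell cycle genes within a day, in both genotypes. The summed level of the 40 genes was 6930 and 7990 CPM in KO monocytes and 5990 and 6570 CPM in WT monocytes. At day 1 it was 2190 and 2230 CPM in KO and 2760 and 1650 CPM in WT cells, and at day 2 it was 2190 and 2580 CPM in KO and 1920 and 2010 CPM in WT cells. The cultured libraries thus all lay below all 4 monocyte libraries, and day 1 and day 2 overlapped in both genotypes. Relative to the genotype's own monocytes, KO cells held 29.6% of the summed level at day 1 and 32% at day 2, and WT cells held 35.1% and 31.3%.

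**Figure D1:**
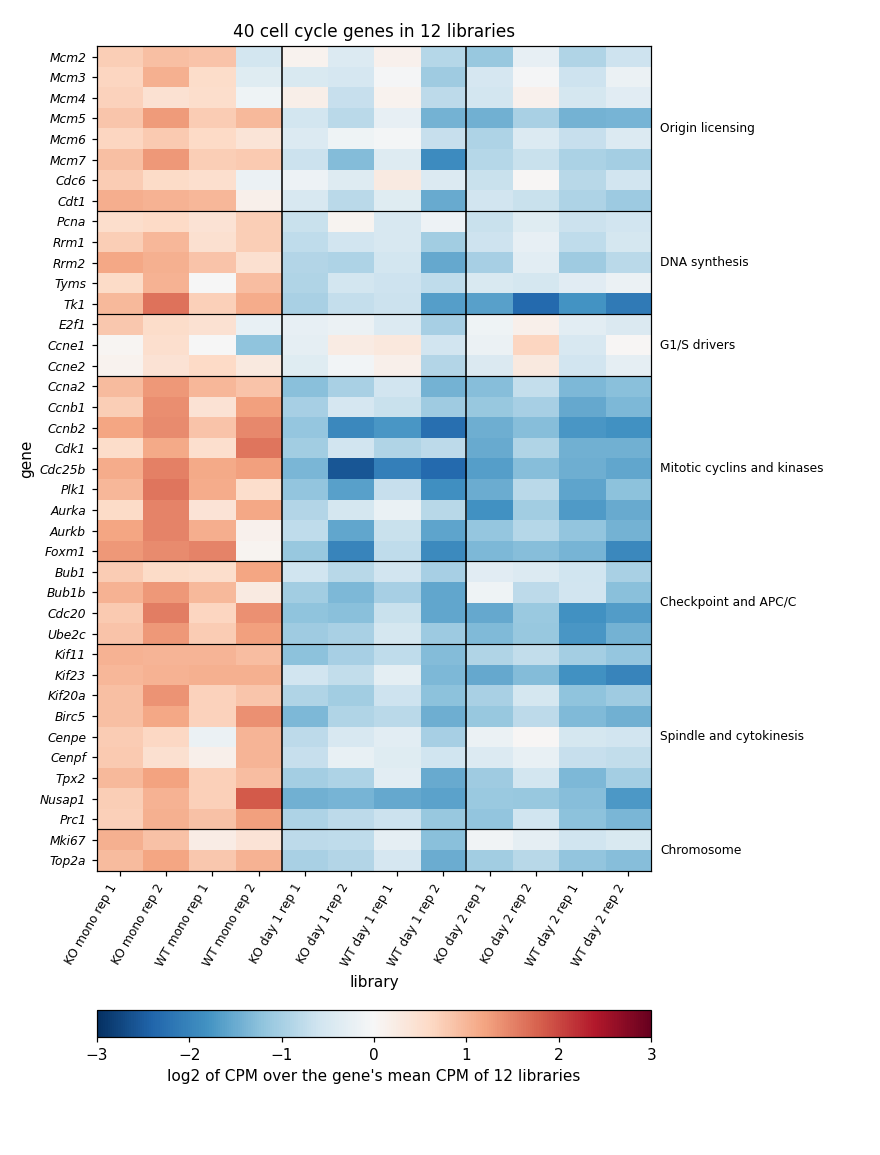
Level of each member (rows, grouped by role) in each library (columns; KO left of WT within a stage), as the log2 of its CPM over its mean CPM of the 12 libraries. The monocyte columns are red in almost every row and the cultured columns mostly blue, and the G1/S rows are the palest.

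In the test of each gene (edgeR's quasi-likelihood test over all 12 libraries, Benjamini-Hochberg adjusted over 14034 genes, threshold 0.05), 32 of 40 members fell at day 1 against monocytes in KO cells, where 6.14% of all genes fell and 7.7% rose. In WT cells 29 of 40 fell at day 1, where 10.1% of all genes fell and 11.4% rose. At day 2 against monocytes, 31 of 40 fell in KO cells, where 7.57% of all genes fell and 9.95% rose, and 30 of 40 fell in WT cells, where 9.89% fell and 12.7% rose. No member rose in any of these 4 comparisons, in edgeR or with DESeq2, and none reached an unadjusted p under 0.05 in the upward direction. The median log2 fold change of the members was -1.78 in KO and -1.65 in WT cells at day 1, and -1.86 in KO and -1.94 in WT cells at day 2, where the medians over all genes lay between 0.06 and 0.11. The 2 days of a genotype share their monocyte libraries, so they are not separate tests of the fall.

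Most members were also separated library by library. Both KO day 1 libraries lay below both KO monocyte libraries for 39 of 40 members, where 27.4% of all genes did, and the same held in WT cells for 35 of 40, where 24.5% did. At day 2 it held for 38 of 40 in KO cells, where 32.2% of all genes did, and for 38 of 40 in WT cells, where 27.2% did. The calls made in the 2 genotypes overlapped, as they must where most of the 40 members are called in each. With 32 KO and 29 WT calls at day 1, and 31 and 30 at day 2, much of the overlap follows from the counts. An expected overlap was not computed, so the shares are no test of whether the genotypes named the same genes. The genotypes share no library, but KO and WT libraries of the same stage and replicate number were paired by experiment. At day 1, 28 genes were called in both, which is 87.5% of the KO calls and 96.6% of the WT calls, and at day 2, 29 genes were, which is 93.5% of the KO calls and 96.7% of the WT calls. Across the 40 members the KO and WT log2 fold changes had a correlation of 0.89 at day 1 and 0.91 at day 2, where it was 0.73 and 0.83 across all 14034 genes. These values come from 1 fit and genes are not independent, so they are descriptions.

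The counts depended on single libraries where groups hold 2. Without WT day 1 replicate 2, 14 members were called in WT cells at day 1, with a median of -1.28, and 4.06% of all genes fell. Without KO monocytes replicate 2, 18 members were called in KO cells at day 1, where 1.96% of all genes fell, and 19 at day 2, where 2.88% fell. Without KO day 1 replicate 2 the count at day 1 was 17, where 1.82% of all genes fell. Without day 2 replicate 1, which held the Xist reads, the count at day 2 was 20 in KO cells, where 3.15% of all genes fell, and 23 in WT cells, where 4.9% did. A fit on the 4 WT libraries of monocytes and day 1 alone called 18, where 6.36% of all genes fell. With both libraries that stood apart left out, 33 members fell at day 1 and 36 at day 2 in KO cells, where 10.6% and 12.4% of all genes did, and 27 and 32 in WT cells, where 11% and 9.42% did. For 11 members no alternative ended a call in any of the 4 comparisons: Ccna2, Ccnb2, Cdc25b, Cdc20, Ube2c, Kif11, Kif20a, Birc5, Nusap1, Prc1 and Top2a.

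**Figure D2:**
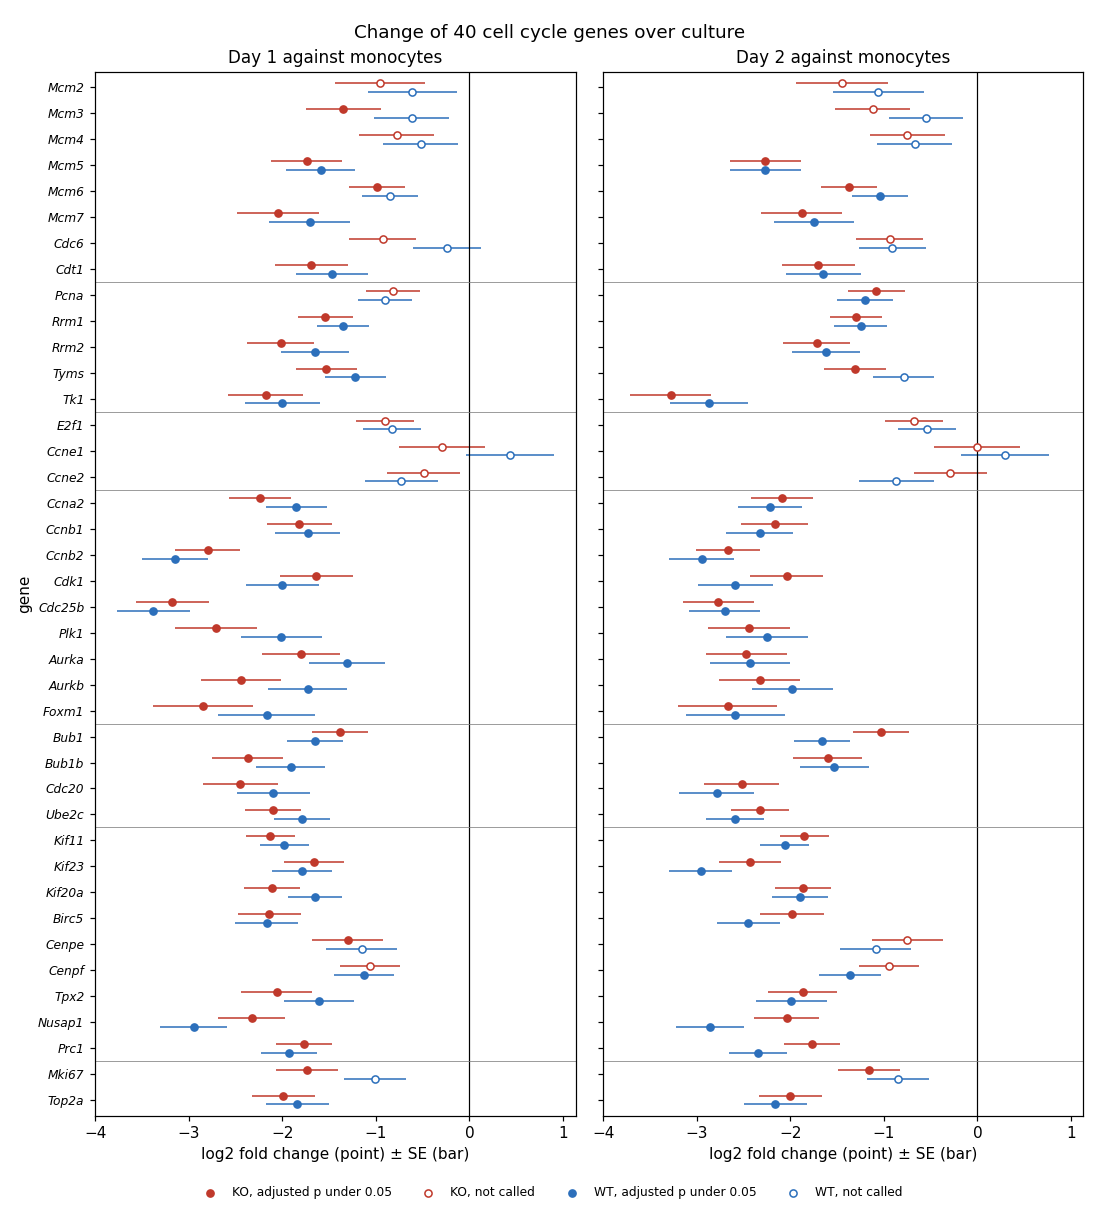
Log2 fold change of each member (points; bars are the SE) at day 1 (left panel) and day 2 (right panel) against monocytes, KO in red above WT in blue, filled where the adjusted p was under 0.05. All 40 points lie left of 0 in KO cells, and in WT cells the points of Ccne1 lie right of it, at 0.43 and 0.29.

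Some markers of other bone-marrow cells fell over culture and some rose. Of 10 markers of granulocyte and monocyte precursors, 5 fell at day 1 and 6 at day 2 in KO cells, and 5 and 8 in WT cells. Among all genes, 6.14% and 7.57% fell in KO cells, and 10.1% and 9.89% in WT cells. The summed level of these 10 markers was 1300 and 959 CPM in KO and 776 and 1510 CPM in WT monocytes. It was 600 and 179 CPM in KO and 429 and 532 CPM in WT cells at day 1, and 192 and 498 CPM in KO and 83.3 and 367 CPM in WT cells at day 2. None of the 10 was at 0 in any library. Mpo, myeloperoxidase, was at 136 to 168 CPM in monocytes and at 1.73 to 5.48 CPM in culture. Of 9 erythroid markers, whose summed level was 37.2 to 176 CPM in monocytes and 2.06 to 6.58 CPM at day 1, 7 were at 0 in each day 1 library, the globin gene Hba-a1 among them. At day 2 that sum was 53.7 to 127 CPM. Markers of B cell precursors summed to at most 20 CPM and those of T and NK cells to at most 8.86 CPM in any library. Neutrophil markers summed to 1640 and 1460 CPM in KO and 1030 and 3580 CPM in WT monocytes and to 494 to 1840 CPM in culture. Markers of stem and progenitor cells summed to 13.6 to 19.6 CPM in monocytes, 17.3 to 53 CPM at day 1 and 67.4 to 169 CPM at day 2. Of the 6 tested, 1 rose in KO and 2 in WT cells at day 1, and 3 in each at day 2, and none fell. The shares of all genes that rose in these comparisons were 7.7% to 12.7%. Markers of stromal cells summed to 33.5 to 48.5 CPM in monocytes, 31.9 to 40.2 CPM at day 1 and 47.9 to 102 CPM at day 2. The part of these cells in the fall of the members was not tested.

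The origin licensing genes kept more of their RNA than the mitotic cyclins, kinases and regulators, and only some of them fell. The group comprises 6 subunits of the MCM replicative helicase and its loaders Cdc6 and Cdt1. Of the 8 genes, 5 fell in KO cells and 3 in WT cells at day 1, and 4 in each genotype at day 2. Their summed level at day 1 was 39.3% of the monocyte level in KO and 48.7% in WT cells, and at day 2 it was 35.4% and 41.3%. The chromosome genes held 27.7% in KO and 38% in WT cells at day 1, and 35.9% and 37.7% at day 2, so in KO cells at day 2 they were level with the licensing genes. The checkpoint and spindle groups held 22.1% to 29.7%, and the DNA synthesis genes 36.8% to 41.3%. Mcm5 was at 267 and 359 CPM in KO and 254 and 294 CPM in WT monocytes, and at 102 and 85 CPM in KO and 126 and 55.7 CPM in WT cells at day 1. Mcm5 at day 2 was at 54.4 and 75.3 CPM in KO and 56 and 57 CPM in WT cells. Every cultured library lay below every monocyte library. Its log2 fold change at day 1 was -1.74 ± 0.38 in KO cells (SE, adjusted p = 0.013 in edgeR) and -1.59 ± 0.37 in WT cells (adjusted p = 0.0136), and at day 2 it was -2.27 ± 0.38 in both. Without WT day 1 replicate 2 the WT day 1 call was lost (adjusted p = 0.0932), and without KO monocytes replicate 2 or KO day 1 replicate 2 the KO day 1 call was (0.102 and 0.113).

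Mcm6 and Mcm3, subunits of the same ring, moved less. Mcm6 was at 235 and 258 CPM in KO and 228 and 196 CPM in WT monocytes, and at 113 and 136 CPM in KO and 143 and 92.5 CPM in WT cells at day 1. Mcm6 at day 2 was at 78.9 and 112 CPM in KO and 92.9 and 113 CPM in WT cells. All of its cultured libraries lay below its monocyte libraries. Mcm3 was at 192 and 254 CPM in KO and 178 and 95.2 CPM in WT monocytes, and at 88.8 and 85.8 CPM in KO and 119 and 58.3 CPM in WT cells at day 1. Mcm3 at day 2 was at 86.4 and 118 CPM in KO and 79.5 and 107 CPM in WT cells. In WT cells Mcm3 overlapped between monocytes and both culture days, with 95.2 CPM in WT monocytes replicate 2. The KO day 1 calls of Mcm3 and Mcm6 stood at the edge of the threshold (edgeR adjusted p = 0.0496 and 0.0498) and 10 of the 12 fits that left out 1 library ended the Mcm6 call (0.0594 to 0.226), as 8 did the Mcm3 call (0.0567 to 0.247). The Mcm6 calls at day 2 were lost without KO monocytes replicate 2 or KO day 2 replicate 1 in KO cells (0.082 and 0.12). In WT cells the day 2 call was lost without either WT day 2 library, either KO monocyte library or WT monocytes replicate 1 (0.0505 to 0.183). With the replicate block, Mcm6 was called in WT cells at day 1 too (edgeR adjusted p = 0.0312), and Mcm3 in KO cells at day 2 (0.0277).

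Mcm7, another helicase subunit, and Cdt1, which delivers the helicase to origins, fell in all 4 comparisons, with log2 fold changes between -2.05 and -1.47. Mcm7 was at 197 and 261 CPM in KO and 177 and 181 CPM in WT monocytes, and at 67.7 and 42.6 CPM in KO and 80.8 and 28.4 CPM in WT cells at day 1. Mcm7 at day 2 was at 58.5 and 66.1 CPM in KO and 54.3 and 52.1 CPM in WT cells. The lowest of these libraries was WT day 1 replicate 2. Cdt1 was at 83.5 and 80.5 CPM in KO and 78.7 and 43.4 CPM in WT monocytes, and at 28.3 and 22.4 CPM in KO and 30.3 and 13.8 CPM in WT cells at day 1. Cdt1 at day 2 was at 26.2 and 24.5 CPM in KO and 20.6 and 18.3 CPM in WT cells. Both stayed below all monocyte libraries in culture. In each of the 4 comparisons leaving out 1 library could end the call, namely WT day 1 replicate 2 at day 1 or either WT day 2 library at day 2 in WT cells, and KO monocytes replicate 2, KO day 1 replicate 2 or either KO day 2 library in KO cells (0.0632 to 0.155). Cdt1 calls also ended without replicate 1 of the monocytes of their genotype (0.0553 to 0.104). Mcm2, Mcm4 and Cdc6 were not called in any of the 4 comparisons without a block, with log2 fold changes of -1.45 to -0.24. Mcm2 was at 123 and 137 CPM in KO and 132 and 50.3 CPM in WT monocytes, and at 79.1 and 54.9 CPM in KO and 79.4 and 40.2 CPM in WT cells at day 1. Mcm2 at day 2 was at 33 and 61.7 CPM in KO and 39.3 and 47.8 CPM in WT cells. WT monocytes replicate 2 was the only monocyte library within the range of the cultured ones. Mcm4 was at 134 and 114 CPM in KO and 120 and 76.5 CPM in WT monocytes, and at 93.7 and 51 CPM in KO and 88.6 and 47.8 CPM in WT cells at day 1. Mcm4 at day 2 was at 56.5 and 90.6 CPM in KO and 57.7 and 65.4 CPM in WT cells. The same library was again the only one to overlap. Cdc6, which loads the helicase with Cdt1, was at 38.1 and 33.8 CPM in KO and 32.2 and 20.1 CPM in WT monocytes, and at 20.4 and 17.3 CPM in KO and 27.2 and 17.1 CPM in WT cells at day 1. Cdc6 at day 2 was at 14.2 and 23.1 CPM in KO and 12.7 and 15.3 CPM in WT cells. For these 3 genes WT monocytes replicate 2 was the lowest monocyte library and lay within the range of WT day 1, while both KO monocyte libraries lay above both KO day 1 libraries. With the replicate number as a block for the experiment, all 3 were called lower in KO cells at day 2 (edgeR adjusted p = 0.00837 for Mcm2, 0.0388 for Mcm4 and 0.0267 for Cdc6). The block also called Mcm4 and Cdc6 in KO cells at day 1 (0.0334 and 0.0354) and Cdc6 in WT cells at day 2 (0.0385).

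The genes of DNA synthesis fell in most comparisons. The group holds the polymerase clamp Pcna, the ribonucleotide reductase subunits Rrm1 and Rrm2, thymidylate synthase (Tyms) and thymidine kinase 1 (Tk1). Of the 5, 4 fell at day 1 in each genotype, and 5 in KO and 4 in WT cells at day 2. Rrm1 was at 289 and 345 CPM in KO and 241 and 285 CPM in WT monocytes, and at 102 and 116 CPM in KO and 123 and 83.3 CPM in WT cells at day 1. Rrm1 at day 2 was at 112 and 145 CPM in KO and 101 and 120 CPM in WT cells. Day 1 and day 2 overlapped in each genotype. Rrm2 was at 209 and 198 CPM in KO and 171 and 132 CPM in WT monocytes, and at 50.8 and 49.8 CPM in KO and 64.7 and 32.3 CPM in WT cells at day 1. Rrm2 at day 2 was at 46.9 and 76.2 CPM in KO and 45 and 53.9 CPM in WT cells. Both subunits were below every monocyte library in every cultured library. Their calls were lost in WT cells without WT day 1 replicate 2 at day 1 (0.0881 and 0.0848) or without either WT day 2 library at day 2 (0.0524 to 0.0948). In KO cells the Rrm1 calls were lost without KO monocytes replicate 2 on both days or KO day 2 replicate 1 (0.063 to 0.117), and the Rrm2 calls without KO day 1 replicate 2, KO monocytes replicate 2 at day 2 or KO day 2 replicate 1 (0.0505 to 0.0893). Pcna, the member with the highest level per kilobase of exon (63.7 CPM per kb on average), was at 222 and 233 CPM in KO and 207 and 254 CPM in WT monocytes, at 96.6 and 161 CPM in KO and 110 and 137 CPM in WT cells at day 1, and at 95.9 and 120 CPM in KO and 98.2 and 103 CPM in WT cells at day 2. Its change passed the test at day 2 only, at -1.08 ± 0.30 in KO (SE, edgeR adjusted p = 0.0303) and -1.20 ± 0.30 in WT cells (0.0159). At day 1 it was -0.82 in KO and -0.90 in WT cells, with adjusted p of 0.0902 and 0.0516 in edgeR, and of 0.0262 and 0.0165 with the replicate block. Leaving out either WT day 2 library ended the WT call at day 2 (adjusted p = 0.0928 and 0.0988), and leaving out any 1 of the KO monocyte or KO day 2 libraries, or WT day 2 replicate 2, ended the KO call (0.0539 to 0.212).

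Tyms, which makes the thymidine nucleotide, was at 69.6 and 96.1 CPM in KO and 46.5 and 89.9 CPM in WT monocytes, and at 25.1 and 32.2 CPM in KO and 30.6 and 27.9 CPM in WT cells at day 1. Tyms at day 2 was at 34.3 and 32.6 CPM in KO and 37.3 and 41.6 CPM in WT cells. It was called in KO cells on both days, and in WT cells at day 1 (-1.22 ± 0.33, SE, edgeR adjusted p = 0.0255) but not at day 2 (-0.79 ± 0.33, 0.108). Its KO calls were lost without KO monocytes replicate 2 or any KO library of the day compared (0.0534 to 0.159), and its WT call without WT monocytes replicate 2 or either WT day 1 library (0.1 to 0.136).

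Tk1, which salvages thymidine, was the member of this group with the smallest adjusted p at day 1 in WT cells. It was at 59.8 and 93.5 CPM in KO and 49.5 and 65.8 CPM in WT monocytes, and at 15.4 and 18.3 CPM in KO and 19.2 and 9.63 CPM in WT cells at day 1. Tk1 at day 2 was at 9.84 and 6.05 CPM in KO and 8.74 and 6.95 CPM in WT cells. The stages did not overlap between monocytes and either culture day. Its log2 fold change at day 1 was -2.18 ± 0.40 in KO (SE, edgeR adjusted p = 0.00616) and -2.00 ± 0.40 in WT cells (0.00684), and at day 2 it was -3.28 ± 0.43 and -2.87 ± 0.42 (0.000726 and 0.00107). The day 1 call was lost without KO monocytes replicate 2 in KO cells (adjusted p = 0.0584) and without WT day 1 replicate 2 in WT cells (0.0566). These counts are of reads on the gene's own strand. With reads of both strands counted together, the log2 fold change of Tk1 at day 2 was 0.40 in KO and 0.67 in WT cells, of opposite sign, and not called (edgeR adjusted p = 0.429 and 0.158).

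The reads on the strand opposite to Tk1 were most numerous at day 2, where its own reads were fewest. They were 118 and 65 reads in KO and 81 and 13 reads in WT monocytes, 105 and 550 reads in KO and 342 and 427 reads in WT cells at day 1, and 723 and 1197 reads in KO and 900 and 691 reads in WT cells at day 2. At day 2 they made up 92.2% to 94.2% of the reads at the gene in all 4 libraries. Tk1 lies at chr11:117815526-117826092 on the minus strand (GRCm38). Syngr2, a plus-strand gene that ends 1243 bases away, at chr11:117809668-117814283, was at 181 to 269 CPM in monocytes, 294 to 863 CPM at day 1 and 1360 to 1610 CPM at day 2. The annotated plus-strand gene Gm20708 spans Syngr2 and Tk1 and had 0 reads in each library. Afmid, a plus-strand gene at chr11:117825924-117839908, overlaps Tk1. It was at 0.996 to 2.2 CPM in monocytes, 0.908 to 2.94 CPM at day 1 and 3.54 to 4.99 CPM at day 2. The part of Syngr2 or Afmid in the opposite-strand reads was not tested. Ccna2, Ccne2 and Kif20a are the other members at which the opposite strand held over 10% of the reads in any library, with at most 28.5%, 39.5% and 23.7%.

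**Figure D3:**
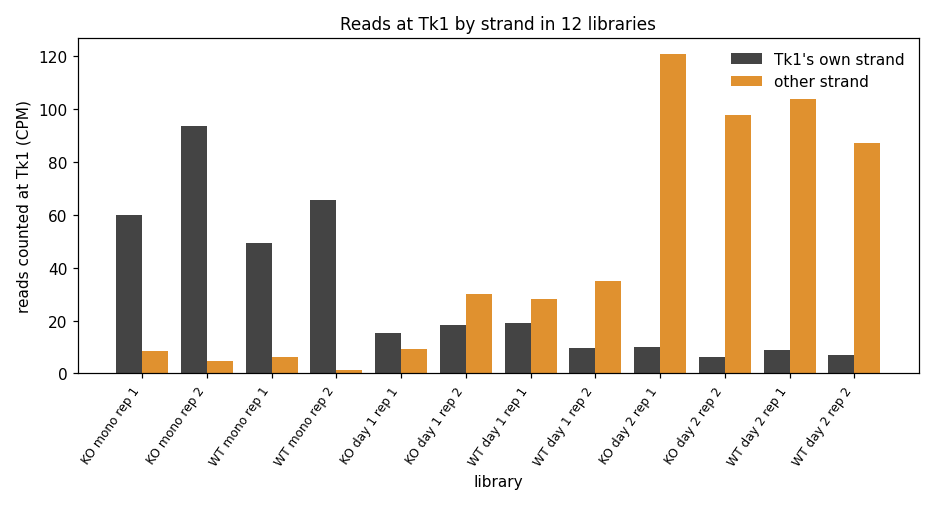
CPM of reads at Tk1 in each library, on its own strand (grey) and on the other strand (orange). The own strand is higher in the monocyte libraries, and at day 2 the other strand is at 87.4 to 121 CPM against 6.05 to 9.84 CPM.

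The G1/S drivers did not pass the test in either direction without a block. They are E2f1, a transcription factor that activates S phase genes, and Ccne1 and Ccne2, the cyclins E that activate CDK2. E2f1 was at 46.9 and 39.3 CPM in KO and 36.5 and 22.9 CPM in WT monocytes, and at 22.4 and 23.7 CPM in KO and 20.2 and 13.4 CPM in WT cells at day 1. E2f1 at day 2 was at 24.3 and 29.5 CPM in KO and 21.3 and 19.6 CPM in WT cells. The lowest monocyte library, WT replicate 2, was within the range of the cultured libraries. Ccne1 was at 32.9 and 44.5 CPM in KO and 31.3 and 13.6 CPM in WT monocytes, and at 26 and 37 CPM in KO and 39.3 and 21.1 CPM in WT cells at day 1. Ccne1 at day 2 was at 27.7 and 48.8 CPM in KO and 22.5 and 32.4 CPM in WT cells. For Ccne1 every stage overlapped with the others in both genotypes. Ccne2 was at 17.9 and 22.5 CPM in KO and 25.3 and 20.7 CPM in WT monocytes, and at 13.1 and 15.8 CPM in KO and 18.6 and 9.14 CPM in WT cells at day 1. Ccne2 at day 2 was at 12.5 and 20.5 CPM in KO and 11.2 and 14 CPM in WT cells. The group held 67.7% of its monocyte level in KO and 81% in WT cells at day 1, and 80.1% and 80.6% at day 2. The smallest adjusted p was 0.0809 in KO and 0.0849 in WT cells, both for E2f1 at day 1 (-0.90 ± 0.31 and -0.83 ± 0.31, SE, edgeR). With the replicate block E2f1 was called lower in KO cells at day 1 (edgeR adjusted p = 0.0469) and was at 0.0514 in WT cells.

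**Figure D4:**
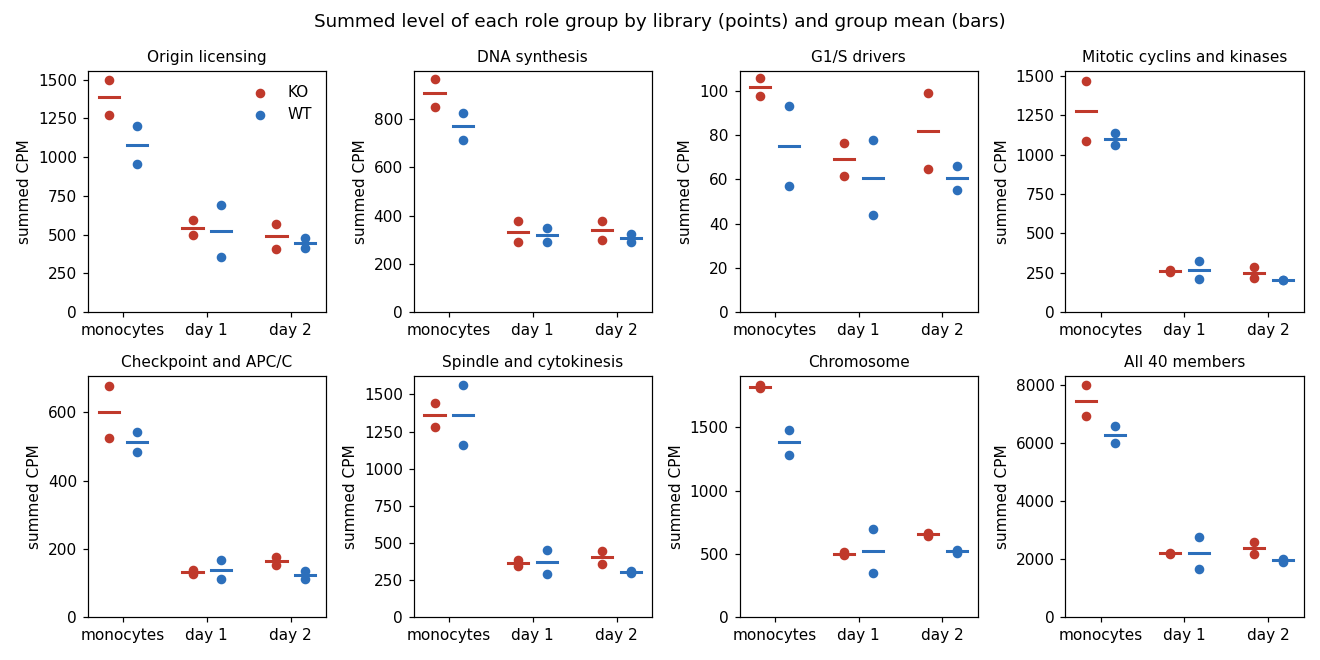
Summed CPM of each role group and of all 40 members by stage (points are libraries, bars group means; KO in red left of WT in blue; axes start at 0). Each panel but the G1/S drivers shows monocyte libraries well above all cultured libraries.

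All 9 mitotic cyclins, kinases and regulators fell in each of the 4 comparisons. At day 1 the group held 20.2% of its monocyte level in KO and 24.1% in WT cells, and at day 2 it held 19.5% and 18.5%. Ccnb2, cyclin B2, was at 171 and 201 CPM in KO and 136 and 205 CPM in WT monocytes, and at 33.9 and 19.8 CPM in KO and 22.6 and 15.8 CPM in WT cells at day 1. Ccnb2 at day 2 was at 27.5 and 31 CPM in KO and 22.5 and 21.6 CPM in WT cells. The highest cultured library, KO day 1 replicate 1, was at 33.9 CPM. Ccna2, cyclin A2, was at 211 and 268 CPM in KO and 219 and 197 CPM in WT monocytes, and at 45.7 and 56.1 CPM in KO and 74 and 41.3 CPM in WT cells at day 1. Ccna2 at day 2 was at 45.5 and 66.9 CPM in KO and 43.2 and 46 CPM in WT cells. Here WT day 1 replicate 1 was the highest cultured library. Cdk1, the kinase that both cyclins activate, was at 111 and 168 CPM in KO and 108 and 231 CPM in WT monocytes, and at 37.3 and 51.6 CPM in KO and 40.9 and 44.1 CPM in WT cells at day 1. Cdk1 at day 2 was at 26.8 and 40.5 CPM in KO and 28.2 and 28.2 CPM in WT cells. No cultured library of these 3 genes reached the lowest monocyte library. The Cdk1 calls were lost in KO cells without KO monocytes replicate 2 on both days, either KO day 1 library or KO day 2 replicate 1 (0.0532 to 0.146), and in WT cells without WT day 1 replicate 1 at day 1 (0.051).

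Ccnb2 had the smallest adjusted p of the group at day 1 in WT cells. Its log2 fold change at day 1 was -2.80 ± 0.35 in KO (SE, edgeR adjusted p = 0.000865) and -3.15 ± 0.35 in WT cells (0.000393), and at day 2 it was -2.67 ± 0.34 and -2.95 ± 0.35. The fall of Cdc25b, a phosphatase that activates CDK1, was the largest of all members at day 1, at -3.18 ± 0.39 in KO and -3.38 ± 0.39 in WT cells. Its values were 74.1 and 96.6 CPM in KO and 75.7 and 80.7 CPM in WT monocytes, and 13.1 and 5.8 CPM in KO and 8.26 and 6.77 CPM in WT cells at day 1. Foxm1, a transcription factor of late cell cycle genes, fell by 2.85 in KO and 2.17 in WT cells on the log2 scale at day 1. It was at 54.4 CPM in WT monocytes replicate 2, where the other monocyte libraries were at 127 to 145 CPM, and without WT day 1 replicate 2 or WT monocytes replicate 1 its WT call at day 1 was lost (edgeR adjusted p = 0.107 and 0.0679). The mitotic kinases Plk1, Aurka and Aurkb and cyclin B1 (Ccnb1) had log2 fold changes between -2.71 and -1.31 at day 1 and between -2.47 and -1.98 at day 2. The Aurka call at day 1 in WT cells (adjusted p = 0.0455) was lost in 6 of the fits that left out 1 library, with adjusted p up to 0.243, and the KO call at day 1 (0.0182) was lost without KO monocytes replicate 2 or either KO day 1 library (0.0694 to 0.164). The day 1 calls of Ccnb1, Plk1 and Aurkb in WT cells were lost without WT day 1 replicate 2 (0.0663, 0.0748 and 0.126), and that of Aurkb also without WT monocytes replicate 1 (0.071). In KO cells the day 1 calls of Aurkb and Foxm1 were lost without KO day 1 replicate 2 (0.0573 and 0.0693) and that of Ccnb1 without KO monocytes replicate 2 (0.0741). At day 2 those of Aurkb and Foxm1 in WT cells were lost without WT day 2 replicate 2 (0.073 and 0.0587).

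All 4 genes of the spindle checkpoint and the APC/C fell in each of the 4 comparisons. Bub1 and Bub1b encode proteins of the spindle checkpoint, which holds the APC/C inactive until chromosomes are attached. Cdc20 encodes the activator of the APC/C, and Ube2c the ubiquitin-conjugating enzyme that works with it. Bub1b was at 223 and 267 CPM in KO and 211 and 130 CPM in WT monocytes, and at 52.2 and 42.6 CPM in KO and 53.7 and 36.7 CPM in WT cells at day 1. Bub1b at day 2 was at 98.4 and 62.8 CPM in KO and 72.7 and 44.9 CPM in WT cells. Both KO day 2 libraries lay above both KO day 1 libraries. Ube2c was at 141 and 192 CPM in KO and 132 and 183 CPM in WT monocytes, and at 37.3 and 40 CPM in KO and 54.2 and 36.9 CPM in WT cells at day 1. Ube2c at day 2 was at 31 and 35.6 CPM in KO and 23.1 and 29.1 CPM in WT cells. The day 2 libraries lay below the day 1 libraries of their genotype. Cdc20 was at 98.2 and 166 CPM in KO and 89 and 147 CPM in WT monocytes, and at 24.5 and 23.9 CPM in KO and 35.7 and 19.3 CPM in WT cells at day 1. Cdc20 at day 2 was at 19.7 and 26.2 CPM in KO and 16.2 and 17.8 CPM in WT cells. All 3 were below every monocyte library in culture. Ube2c had the smallest adjusted p of the group at day 1 in WT cells, with -2.10 ± 0.30 in KO (SE, edgeR adjusted p = 0.00191) and -1.79 ± 0.30 in WT cells (0.00276).

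Bub1b and Bub1 held their KO day 2 calls less firmly. Bub1b was called at -1.60 ± 0.37 in KO (SE, edgeR adjusted p = 0.0137) and -1.53 ± 0.37 in WT cells (0.0141) at day 2. Without KO monocytes replicate 2 or KO day 2 replicate 2 its adjusted p in KO cells was 0.091 and 0.125, and without WT day 2 replicate 2 it was 0.13 in WT cells. Bub1 was at -1.03 ± 0.30 in KO (0.0373) and -1.66 ± 0.30 in WT cells (0.00355) at day 2, and leaving out any 1 of the KO monocyte or KO day 2 libraries, or WT day 2 replicate 2, ended its KO call (0.0577 to 0.194). At day 1 the KO call of Bub1 was lost without either KO monocyte library or KO day 1 replicate 2 (0.061 to 0.11), and the WT call of Bub1b without WT day 1 replicate 2 (0.0593).

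Of the 9 genes of the spindle and cytokinesis, 8 fell at day 1 in each genotype, and 7 in KO and 8 in WT cells at day 2. Kif11, the motor that pushes spindle poles apart, was at 220 and 215 CPM in KO and 216 and 202 CPM in WT monocytes, and at 45.5 and 53.5 CPM in KO and 63.3 and 43 CPM in WT cells at day 1. Kif11 at day 2 was at 56.9 and 64 CPM in KO and 52.3 and 47.9 CPM in WT cells. At day 1 the log2 fold change of Kif11 was -2.13 ± 0.26 in KO (SE, edgeR adjusted p = 0.00086) and -1.98 ± 0.26 in WT cells (0.000878). Tpx2, a spindle assembly factor that activates Aurora A, was at 180 and 212 CPM in KO and 151 and 176 CPM in WT monocytes, and at 45.5 and 48.6 CPM in KO and 74.5 and 32.5 CPM in WT cells at day 1. Tpx2 at day 2 was at 44.4 and 62.7 CPM in KO and 36.6 and 45.6 CPM in WT cells. At day 1 the WT libraries lay on either side of the KO libraries. Nusap1, which binds spindle microtubules, was at 148 and 183 CPM in KO and 146 and 314 CPM in WT monocytes, and at 32.3 and 33.4 CPM in KO and 30.4 and 29.1 CPM in WT cells at day 1. Nusap1 at day 2 was at 40.7 and 40 CPM in KO and 36.5 and 26.7 CPM in WT cells. WT monocytes replicate 2 was thus the highest Nusap1 library, while the stages stayed apart.

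Nusap1 had the smallest adjusted p of the spindle group at day 1 in WT cells. Its log2 fold change was -2.33 ± 0.36 in KO (SE, edgeR adjusted p = 0.00252) and -2.95 ± 0.36 in WT cells (0.000647). Birc5 (survivin, of the chromosomal passenger complex), Prc1 (a bundler of midzone microtubules) and the cytokinesis motors Kif20a and Kif23 had log2 fold changes between -2.17 and -1.65 at day 1 and between -2.96 and -1.77 at day 2, and all of these passed the test. The KO day 1 call of Kif23 was lost without KO monocytes replicate 2 or KO day 1 replicate 2 (0.0568 and 0.076). The Tpx2 calls were lost without WT day 1 replicate 2 in WT cells at day 1 (0.0833) and without KO monocytes replicate 2 or KO day 2 replicate 1 in KO cells at day 2 (0.0545 and 0.0684).

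The kinetochore proteins Cenpe and Cenpf were the exceptions, with log2 fold changes between -1.36 and -0.75. Cenpe was at 107 and 96.7 CPM in KO and 56 and 128 CPM in WT monocytes, and at 36.6 and 45.7 CPM in KO and 51 and 31.7 CPM in WT cells at day 1. Cenpe at day 2 was at 55.7 and 65.1 CPM in KO and 43.6 and 42.6 CPM in WT cells. WT monocytes replicate 1 lay just above WT day 1 replicate 1. Cenpf was at 72.4 and 58.2 CPM in KO and 46.4 and 85.5 CPM in WT monocytes, and at 26.2 and 36.3 CPM in KO and 32.5 and 27.7 CPM in WT cells at day 1. Cenpf at day 2 was at 31.5 and 36.1 CPM in KO and 26.2 and 25.2 CPM in WT cells. The cultured libraries lay below the monocytes of their own genotype for both genes. Cenpe was called in KO cells at day 1 only (edgeR adjusted p = 0.0449), and Cenpf in WT cells only (0.0319 at day 1 and 0.0143 at day 2), with the KO values at 0.053 and 0.0672. With the replicate block Cenpf was called in KO cells as well (0.0326 at day 1 and 0.0466 at day 2). Each of the 3 calls made without a block was lost in several fits that left out 1 library, with adjusted p of up to 0.157 for Cenpe and of up to 0.168 and 0.0991 for Cenpf, and the interaction test given further on called neither gene.

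Mki67 and Top2a, the proliferation antigen Ki-67 that coats mitotic chromosomes and topoisomerase II alpha, were among the members with the highest levels per kilobase of exon, at 50.5 and 43.6 CPM per kb on average over the 12 libraries. Mki67 was at 1060 and 942 CPM in KO and 593 and 679 CPM in WT monocytes, and at 296 and 300 CPM in KO and 421 and 212 CPM in WT cells at day 1. Mki67 at day 2 was at 474 and 423 CPM in KO and 338 and 369 CPM in WT cells. Both KO monocyte libraries lay above both WT monocyte libraries. Top2a was at 754 and 890 CPM in KO and 688 and 804 CPM in WT monocytes, and at 199 and 214 CPM in KO and 279 and 139 CPM in WT cells at day 1. Top2a at day 2 was at 190 and 222 CPM in KO and 173 and 161 CPM in WT cells. Both genes were lower in every cultured library than in every monocyte library. Top2a fell at day 1, at a log2 fold change of -1.99 ± 0.34 in KO (SE, edgeR adjusted p = 0.00429) and -1.84 ± 0.34 in WT cells (0.0044). Mki67 passed the test in KO cells, at -1.74 ± 0.33 at day 1 and -1.16 ± 0.33 at day 2 (0.00744 and 0.0347), and was at -1.01 ± 0.33 and -0.85 ± 0.33 in WT cells (0.0507 and 0.0859). With the replicate block it was called in WT cells at day 1 (edgeR adjusted p = 0.0246) and stood at 0.0503 at day 2. The KO calls of Mki67 were lost without KO monocytes replicate 1 or KO day 1 replicate 2 at day 1 (0.0505 and 0.0567), and without any 1 of the KO monocyte or KO day 2 libraries or WT day 2 replicate 2 at day 2 (0.0586 to 0.203).

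Between day 2 and day 1 no member was called in either genotype. In KO cells 0.542% of all genes were lower at day 2 than at day 1 and 1.5% higher, and in WT cells 3.51% were lower and 4.67% higher. The members' median log2 fold change was 0.15 in KO and -0.23 in WT cells. At an unadjusted p under 0.05 in edgeR, Tk1 and Kif23 were lower in KO cells, and Aurka, Ube2c and Kif23 in WT cells. DESeq2 called 0 members in KO and 1 in WT cells. The shares of all genes at that unadjusted threshold or with DESeq2 are not set beside these. They are thus not read as a result about the members. Kif23, a subunit of the centralspindlin complex at the division plane, was at 24 and 28.2 CPM in KO and 19.8 and 17.8 CPM in WT cells at day 2, against 47.4 and 42.3 CPM in KO and 56.9 and 27.7 CPM in WT cells at day 1. Its log2 fold change was -0.78 ± 0.32 in KO (SE, edgeR adjusted p = 0.235) and -1.17 ± 0.32 in WT cells (0.0507). With the replicate number as a block for the experiment, its adjusted p in WT cells was 0.0274, and 8.13% of all genes were then called lower. Leaving out either WT monocyte library also gave a call in WT cells (0.0388 and 0.0397), as did leaving out WT day 1 replicate 2 (0.0347).

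The effect of the Nr4a3 deletion is addressed by the comparison of KO with WT cells, in which no member was called at any stage. In monocytes and at day 1, 0% of all genes were called in either direction, and at day 2, 0% were called higher and 0.0998% lower. In the fit without a block, no member reached an unadjusted p under 0.05 at any stage. With DESeq2 and the other tools and settings on all libraries the count of called members stayed at 0. The log2 fold changes ran between -0.47 and 0.78 in monocytes, between -0.27 and 0.48 at day 1 and between -0.24 and 0.49 at day 2, with SEs of 0.25 to 0.51. Their medians were 0.24, 0.05 and 0.34, and they were positive for 31, 24 and 37 of the 40 members. The interaction test, which asks whether the change over culture differed between genotypes, called no member from monocytes to day 1, from monocytes to day 2 or from day 1 to day 2. In those tests 0%, 0.0285% and 0% of all genes were called lower and 0% higher, and 0 members had an unadjusted p under 0.05.

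At day 2 the fitted KO to WT log2 fold change was positive for 37 of the 40 members, with no member called. Both KO libraries were above both WT libraries for 20 of 40 members, where 17.6% of all genes were, and the same held for 14 of 40 in monocytes, where 13.3% were, and for 2 of 40 at day 1, where 10.3% were. Within the day 2 experiments, which each hold 1 KO and 1 WT library, KO was above WT in both for 30 of 40 members (34.6% of all genes). The median difference of log2(CPM + 0.5) there was 0.16 in the first experiment and 0.47 in the second. The summed level was 2190 CPM in KO against 1920 CPM in WT in the first, and 2580 CPM against 2010 CPM in the second.

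Testing the 4 day 2 libraries alone with the experiment as a block, an alternative added after seeing the data, called 2 members higher in KO, where 6.25% of all genes were called higher. Bub1b was at 98.4 and 62.8 CPM in KO day 2 cells, against 72.7 and 44.9 CPM in WT, with a log2 fold change of 0.46 ± 0.11 (SE, edgeR adjusted p = 0.0267). Cenpe was at 55.7 and 65.1 CPM in KO, against 43.6 and 42.6 CPM in WT, at 0.49 ± 0.12 (0.0332). The share of members called is close to the share of all genes. The summed level of 10 monocyte markers was 2940 and 2090 CPM in KO and 2140 and 1040 CPM in WT day 2 cells. That of 10 dendritic cell markers was 25800 and 29200 CPM in KO and 20200 and 18100 CPM in WT. That of the precursor markers was 192 and 498 CPM in KO and 83.3 and 367 CPM in WT. The monocyte and precursor sums overlapped between genotypes, and no marker of these lists was called in the fit of all 12 libraries. Single dendritic cell markers went both ways. Itgax, H2-Ab1, H2-Eb1, Cd74 and Ciita had log2 fold changes of 0.47 to 0.9, and Ccr7, Flt3, Zbtb46, Irf4 and Batf3 of -3.9 to -0.23. Prtn3, at -2.02, went against the precursor sum. The part of these markers in the difference of the members was not tested.

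At day 1 the experiments went opposite ways. In the first, KO was above WT for 5 of 40 members, with a median difference of -0.31 in log2(CPM + 0.5), and in the second it was above for 38 of 40, with a median of 0.41. The first includes the library labelled KO day 1 replicate 1, which stood apart, and the second the WT day 1 library with the lowest summed level of all, at 1650 CPM. In monocytes KO was above WT in both experiments for 24 of 40 members (23.6% of all genes), with medians of 0.12 and 0.28. The spread there was wide in the second experiment, where WT monocytes replicate 2 differed from replicate 1 by between -1.40 (Foxm1) and 1.18 (Cenpe) on the log2 scale. Across the 40 members the KO to WT log2 fold change in monocytes had a correlation of 0.58 with the GC content of the transcript, where it was 0.11 across 13995 genes. The ratio of WT monocytes replicate 2 over replicate 1 had one of -0.43 with it, where it was -0.13. That library enters both values, so they are not separate observations. The same ratio of replicates had a correlation of 0.26 in KO monocytes and -0.42 in KO day 1 cells, where it was 0.16 and -0.13.

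**Figure D5:**
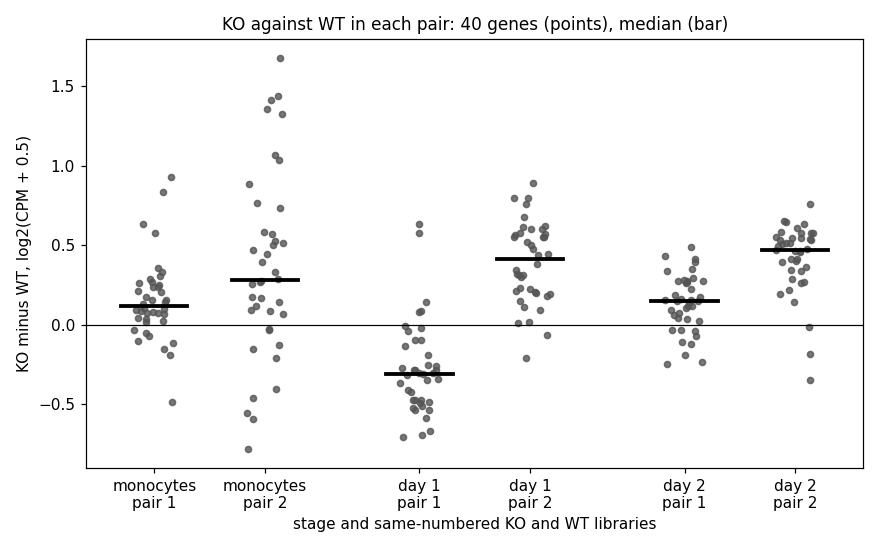
Difference of log2(CPM + 0.5) between KO and WT for each member (points) in the same-numbered libraries of each stage, with the median as a bar. The medians are 0.12 and 0.28 in monocytes, -0.31 and 0.41 at day 1, and 0.16 and 0.47 at day 2.

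Other genes of the cell cycle were taken as lists to set beside the members. Of 33 further genes of mitosis, 27 fell in KO and 28 in WT cells at day 1, and 26 and 29 at day 2, and none rose. Among all genes, 6.14% fell in KO and 10.1% in WT cells at day 1, and 7.57% and 9.89% at day 2. Kif22, a chromosome motor, was at -2.90 ± 0.36 in KO and -2.59 ± 0.35 in WT cells at day 1 (log2, SE, edgeR adjusted p = 0.00086 and 0.000973). Racgap1, the partner of Kif23 in centralspindlin, was at -2.73 ± 0.34 and -2.14 ± 0.33 (0.000933 and 0.00192). The condensin subunit Smc4 was not called, at 112 and 183 CPM in KO and 188 and 142 CPM in WT cells at day 1, against 198 and 165 CPM in KO and 134 and 237 CPM in WT monocytes. Of 34 further genes of S phase, 10 fell in KO and 13 in WT cells at day 1, and 13 and 16 at day 2, and none rose. Cdc45, which completes the active helicase, was at -1.62 ± 0.27 in KO and -1.89 ± 0.27 in WT cells at day 1 (0.00386 and 0.00132). Dnmt1, the maintenance DNA methyltransferase, was at -1.76 ± 0.52 in KO and -1.31 ± 0.52 in WT cells, with a call in KO cells alone (0.0497 and 0.0958). These lists thus had the larger share of falls among mitotic genes, as the members did, and the difference between the lists was not tested.

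Some genes upstream of S phase rose and some fell. Of 9 G1 cyclins, cyclin-dependent kinases and their activators, 2 rose at day 1 in each genotype, and at day 2 there were 3 that rose in each and 2 that fell in WT cells. Among all genes, 7.7% rose in KO and 11.4% in WT cells at day 1. At day 2, 9.95% rose in KO and 12.7% in WT cells, and 9.89% fell in WT cells. Ccnd1, cyclin D1, was at 1.5 and 0.851 CPM in KO and 0.843 and 0 CPM in WT monocytes, and at 80.9 and 19.5 CPM in KO and 35.3 and 14 CPM in WT cells at day 1. Ccnd1 at day 2 was at 76.2 and 105 CPM in KO and 48.5 and 48.8 CPM in WT cells. No Ccnd1 read was counted in WT monocytes replicate 2. Ccnd2, cyclin D2, was at 0.0714 and 0.993 CPM in KO and 1.23 and 0.527 CPM in WT monocytes, and at 77.1 and 25.4 CPM in KO and 35.8 and 42.8 CPM in WT cells at day 1. Ccnd2 at day 2 was at 21.5 and 120 CPM in KO and 134 and 1170 CPM in WT cells. Both genes were thus near the floor in monocytes and apart from it in culture, and Ccnd2 spread most between the day 2 libraries. Cdk6, a kinase that D cyclins activate, rose at day 2, by 2.93 ± 0.85 in KO and 3.35 ± 0.87 in WT cells (log2, SE, edgeR adjusted p = 0.0381 and 0.0197). Ccnd3, cyclin D3, was at 437 to 577 CPM in monocytes and 76 to 483 CPM in culture and was not called in either genotype.

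Among 6 tested inhibitors of cyclin-dependent kinases, Cdkn1a (p21) rose while Cdkn2d (p19) and Cdkn2c (p18) fell, in both genotypes and on both days. In these comparisons 7.7% to 12.7% of all genes rose and 6.14% to 10.1% fell. Cdkn1a was at 136 and 96.5 CPM in KO and 108 and 59.6 CPM in WT monocytes, and at 509 and 503 CPM in KO and 611 and 747 CPM in WT cells at day 1. Cdkn1a at day 2 was at 616 and 828 CPM in KO and 624 and 873 CPM in WT cells. Its log2 fold change at day 1 was 2.12 ± 0.37 in KO (SE, edgeR adjusted p = 0.0045) and 3.02 ± 0.38 in WT cells (0.000695). Cdkn2d was at 156 and 165 CPM in KO and 105 and 97.7 CPM in WT monocytes, and at 7.94 to 13.9 CPM in all cultured libraries, with log2 fold changes between -3.87 and -3.32. Cdkn1b (p27) passed the test at day 1 but not at day 2, at -1.58 ± 0.32 in KO and -2.22 ± 0.33 in WT cells (0.0104 and 0.00155).

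Of 18 genes of the Rb, E2F and DREAM complexes, 2 fell and 1 rose in KO and 7 fell and 2 rose in WT cells at day 1. At day 2, 3 fell and 2 rose in KO and 5 fell and 1 rose in WT cells. Among all genes, 6.14% fell and 7.7% rose in KO and 10.1% fell and 11.4% rose in WT cells at day 1. At day 2 these shares were 7.57% and 9.95% in KO and 9.89% and 12.7% in WT cells. The KO counts of this list at day 1 were near those shares. E2f2, an activating E2F, was at 403 and 391 CPM in KO and 408 and 325 CPM in WT monocytes, and at 66 and 70.1 CPM in KO and 93.4 and 64.5 CPM in WT cells at day 1. E2f2 at day 2 was at 61.7 and 49.9 CPM in KO and 42.9 and 26.4 CPM in WT cells. No cultured library reached the monocyte range, and E2f2 fell in all 4 comparisons, at -2.54 ± 0.32 in KO and -2.22 ± 0.32 in WT cells at day 1 (log2, SE, edgeR adjusted p = 0.000967 and 0.00124). Rbl1 (p107), an Rb relative, fell by 1.48 in KO and 1.70 in WT cells at day 1 (0.0191 and 0.00777). E2f5 rose at day 2, by 2.35 ± 0.52 in KO and 4.15 ± 0.57 in WT cells (0.011 and 0.000732). Tfdp1, the usual partner of E2F proteins, was not called in these comparisons.

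Myc, a transcription factor that drives growth and entry into the cycle, was highest at day 1. It was at 8.71 and 5.96 CPM in KO and 10.3 and 3.59 CPM in WT monocytes, and at 94.9 and 118 CPM in KO and 159 and 104 CPM in WT cells at day 1. Myc at day 2 was at 15 and 26.3 CPM in KO and 14.3 and 18.3 CPM in WT cells. It rose at day 1 by 3.86 ± 0.51 in KO and 4.22 ± 0.52 in WT cells (log2, SE, edgeR adjusted p = 0.00133 and 0.000657), and was lower at day 2 than at day 1, at -2.36 ± 0.48 in KO and -3.01 ± 0.49 in WT cells (0.0334 and 0.00737). Day 1 was thus apart from both other stages for Myc, while the members stayed low on both days. Its relative Mycl was at 0 to 0.429 CPM in monocytes and 6 to 53.2 CPM at day 2, and rose in both genotypes.

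Of 12 genes that restrain proliferation, 7 fell and 1 rose at day 1 in each genotype, and at day 2 there were 2 that fell and 2 that rose in KO and 3 of each in WT cells. Among all genes, 6.14% fell and 7.7% rose in KO and 10.1% fell and 11.4% rose in WT cells at day 1. At day 2 these shares were 7.57% and 9.95% in KO and 9.89% and 12.7% in WT cells. Klf2, a transcription factor tied to quiescence, was at 194 and 180 CPM in KO and 185 and 121 CPM in WT monocytes and at 4.41 to 22 CPM in all cultured libraries. Ccng1, cyclin G1, a target of p53, rose in all 4 comparisons, by 2.36 ± 0.32 in KO and 2.24 ± 0.32 in WT cells at day 1 (log2, SE, edgeR adjusted p = 0.00156 and 0.00129). Ccng2, cyclin G2, was at 17.6 and 8.54 CPM in KO and 8.92 and 10.6 CPM in WT cells at day 1, where monocytes had 73.7 to 106 CPM and day 2 cells 32.1 to 78.4 CPM. Between day 2 and day 1, 2 of the 12 were higher in KO and 6 in WT cells, and none was lower. The shares of all genes that were higher were 1.5% in KO and 4.67% in WT cells. Gadd45b, a stress-induced gene, was at 69 and 40.2 CPM in KO and 169 and 130 CPM in WT cells at day 2, against 18.7 and 13.6 CPM in KO and 15.9 and 30.3 CPM in WT cells at day 1. These lists were set with earlier results of these libraries known, so they give no independent evidence of a direction.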

How the data were processed

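RNA was measured by poly(A) RNA-seq in 12 libraries, 2 for each of 6 groups. Per the submitters' processing notes, reads were trimmed with Trimmomatic 0.35 and aligned to GRCm38 with STAR 2.5.1b. No annotation release is stated there. The deposited files hold raw read counts per gene for both strands together and for each strand apart, and the counts of the reverse strand were used, since the labels' protocols name a stranded kit and the other strand held 3.63% to 5.33% of the reads. The lines that name no gene were left out of library sizes and tests: unmapped reads were 2.65% to 7.91% of the total, multimapping reads 5.29% to 8.94%, reads in no gene 5.24% to 11.2% and ambiguous reads 1.34% to 1.76%.

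From these counts, edgeR 4.0.16 (R 4.3.3, limma 3.58.1) fitted 1 mean per group over all 12 libraries with TMM normalization, its default filter on low counts and the robust quasi-likelihood test. This left 14034 genes, 6 residual degrees of freedom and a common biological coefficient of variation of 0.393. Contrasts compared the days within each genotype, the genotypes at each stage and the change between the genotypes, with Benjamini-Hochberg adjustment over all genes tested. CPM values use TMM-adjusted library sizes. A summed level adds the CPM of a list. Differences within an experiment used log2(CPM + 0.5). The scripts were tested on simulated data. Gene reads of 5905266 to 18447405 a library limit a count of 0 to at most 3 counts, for counting error only.

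Values in every library are given for the 3 members of each role group with the highest mean CPM, for members whose call goes against most of their group and for the smallest adjusted p at day 1 in WT cells, and some further members were named after their values were seen. Of the other lists, a few genes with the smallest adjusted p and up to 2 that did not pass are named. The members and lists were chosen with earlier results of these data known. Replicates of a group differed by far more than sampling noise (chi-square per degree of freedom 34.7 to 175). By the dates in the deposited file names, same-numbered libraries share an experiment, and their deviations from the group means had correlations of 0.236 in monocytes, 0.194 at day 1 and 0.657 at day 2 between KO and WT, and of 0.128 in KO and 0.276 in WT cells between monocytes and day 1. The fit of 1 mean per group left this pairing out, and fits with the replicate block, which take it in, are alternatives. Other alternatives were DESeq2 1.42.0, other normalizations, no filter, counts of both strands, the compared groups alone and leaving out libraries.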

Additional observations from a re-analysis of the deposited data

Results flagged for a closer look

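The reads on the strand opposite to Tk1 lie outside the counts that the comparisons use. In the day 2 libraries they came to 121 and 97.9 CPM in KO cells and to 104 and 87.4 CPM in WT cells, above the level of every monocyte library, where they made up at most 12.4% of the reads at the gene. Groups of 2 libraries allow no test of a single library that stands apart.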

How the results depend on the processing

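Over 122 called member comparisons with monocytes and 21 alternatives, 2328 of 2501 values kept their direction and their side of the threshold, 171 lost the call in the same direction and 2 changed direction. The 2 were Tk1 at day 2 with both strands counted together, at 0.40 in KO and 0.67 in WT cells, where the opposite-strand reads are added by construction. Many of the alternatives left out a library outside the groups compared. Those change mainly the estimate of the spread, so the pooled number overstates how firm a call was. The count of members lower at day 1 in WT cells was 18 when the compared groups were fitted alone, with fewer libraries behind the spread. The count of members lower at day 2 than at day 1 in WT cells was 0 as reported, 2 without the low-count filter, and 1 each with the replicate block, with DESeq2, and without WT monocytes replicate 2 and KO day 1 replicate 1 together, and the cause was not tested. With both strands counted together 1 member was higher at day 2 than at day 1 in KO cells. With the replicate block in a fit of the day 2 libraries alone, 2 members were higher in KO than in WT cells, where 6.25% of all genes were. Leaving out 1 library gave 17 to 35 members lower at day 1 and 19 to 34 at day 2 in KO cells, 14 to 30 and 20 to 30 in WT cells, 0 to 1 lower between day 2 and day 1 in WT cells, and 0 for the other counts. The replicate block over all libraries called 37 and 36 members lower in KO and 32 and 31 in WT cells at day 1 and day 2, where 10.1% and 11.5% of all genes in KO and 13.3% and 13.9% in WT cells were lower. The block gave 5 and 5 further calls in KO and 3 and 1 in WT cells and ended none, and changed no count of members beyond those given here. A blocked fit of the compared groups alone could not be made for comparisons with day 2, whose experiments are others. The share of all genes called also moved with the setting, as given above for several of these fits. Counts given here without that share are therefore not read as results about the members. The lists of other genes were not recomputed under the alternatives. With 2 libraries a group and no block, the SE of a difference between genotypes in a member was 0.25 to 0.51. In the blocked fit of the day 2 libraries alone it was 0.1 to 0.23.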
